A study of Arabidopsis thaliana with 2 samples.

Results

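The YABBY genes of Arabidopsis thaliana are a family of 6 transcription factor genes: FIL (AT2G45190), YAB3 (AT4G00180), YAB2 (AT1G08465), YAB5 (AT2G26580), CRC (AT1G69180) and INO (AT1G23420). The members were chosen by gene identifier, with no threshold on a measured value, and are 6 of the 36917 genes in the count tables. They were measured by single-nucleus RNA-seq, in which each barcode tags the transcripts of 1 nucleus and each unique molecular identifier (UMI) counts 1 captured molecule. All plants were pAP1:AP1-GR ap1-1 cal-1 in the Ler ecotype. In this line the ap1 and cal mutations make the inflorescence pile up meristems, and dexamethasone, applied daily to the main inflorescence, lets the AP1-GR fusion protein enter nuclei so that flowers start together. Nuclei came from 1 library taken at day 3 (stage 4 of flower development) and 1 library taken at day 4 (stage 5). Each was made from about 20 pooled inflorescences, which may have included stem and pedicel cells. All plants received dexamethasone and there was no mock-treated library. Transgene and resident AP1 transcripts share 1 row and cannot be told apart.

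A barcode was taken as a nucleus when it held 1000 or more nuclear genes, which left 4397 nuclei at day 3 and 4545 at day 4, with medians of 1842 and 1805 UMIs per nucleus and 11083512 and 10202530 UMIs in all. The libraries shared 6 barcodes. They also differed in amplification cycles and sequencing machine, which cannot be told apart from the day. With 1 library per day there was no replicate and no test was made. Every interval below is an exact 95% interval that covers counting error only. Levels are UMIs of a gene scaled to the UMIs of all nuclear genes, as CPM, and because the protocol tags 3′ ends, they were compared within a gene and not between genes. Genes of the labelled tissue, flower meristem, were present. AP1, whose counts can include the transgene, stood at 419 CPM at day 3 and 414 CPM at day 4. LFY, which gives floral identity, stood at 100.6 and 63.9 CPM, and AP3, which specifies petals and stamens, at 209 and 131 CPM. No other tissue was compared.

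YABBY proteins carry a zinc finger and a DNA-binding YABBY domain, and several members mark the abaxial side, the lower side, of leaves and floral organs. FIL, YAB3, YAB2 and YAB5 act in leaves and floral organs, where they promote blade growth, and FIL and YAB3 restrain meristem genes of the class I KNOX group. CRC acts in carpels and nectaries, and INO in the outer integument of the ovule, a tissue that forms after the stages sampled here. YABBY proteins work with the co-repressors LUG, LUH and SEU, and their transcription is tied to the abaxial factors of the KANADI and ARF families.

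Because the members are related, the sequences were first compared to see whether reads of 1 member could be taken for another. In RefSeq gene models on TAIR10.1, a Columbia reference rather than Ler, the proteins of the 15 pairs of members were identical at 38.0% to 63.2% of aligned residues, with FIL and YAB3 the closest pair (144 of 228). The longest stretch shared by any pair of transcripts ran from 10 to 20 bases. For FIL and YAB3 it was 17 bases of coding sequence, 412 bases from the 3′ end of FIL and 470 bases from that of YAB3, and within the last 300 bases of both, where tagged fragments start, the longest shared run was 10 bases. The coding stretch common to FIL and YAB3 is shown here to give the scale of the overlap.
FIL and YAB3 shared stretch: gaggagatccaacgtat
FIL lies at chr2:18628252-18630779 and YAB3 at chr4:72545-75576, both on the minus strand and with 7 exons each. YAB2 (chr1:2675813-2679824) has 6 exons, YAB5 (chr2:11303455-11307010) 8, CRC (chr1:26007350-26009141) 7 and INO (chr1:8317297-8319491) 7. FIL, YAB3, YAB2, YAB5 and INO overlapped no other annotated gene, and CRC overlapped AT1G69170, on the opposite strand, by 19 bases.

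The 250 bases before the starts of FIL and YAB3 are shown because these members were found in the same nuclei more often than independent genes would be. Both are written 5′ to 3′ on the strand of the gene, with matches to CCANTG in capitals.
FIL, chr2:18630780-18631029, minus strand: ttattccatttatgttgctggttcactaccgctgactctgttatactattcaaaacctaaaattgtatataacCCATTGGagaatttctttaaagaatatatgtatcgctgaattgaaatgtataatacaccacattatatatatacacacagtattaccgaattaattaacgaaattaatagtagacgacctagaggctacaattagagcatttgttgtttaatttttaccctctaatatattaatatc
YAB3, chr4:75577-75826, minus strand: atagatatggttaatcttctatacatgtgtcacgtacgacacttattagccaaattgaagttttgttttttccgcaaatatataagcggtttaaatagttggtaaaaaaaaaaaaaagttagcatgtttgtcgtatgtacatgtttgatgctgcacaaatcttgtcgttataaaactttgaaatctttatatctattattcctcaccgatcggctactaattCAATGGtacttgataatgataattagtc
CCANTG is the core of the site bound by the floral regulator LFY. It was searched on both strands and occurred in 20.8% of 27443 promoters of this length. FIL held 2 overlapping matches, 177 and 176 bases before its start, and YAB3 held 1, at 28 bases. The other 4 members held none. TGTCTC, the element bound by auxin response factors, was found in YAB2 alone, 17 bases before its start, against 10.9% of all promoters. CACGTG, the G-box (6.49% of all promoters), and the CArG box of MADS proteins such as AP1 (2.52%) were found in none of the 6. A match is a description of the letters and not a site.

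FIL and YAB3, the pair with overlapping roles in giving abaxial identity, stood at the same level on both days. FIL gave 3790 UMIs, or 342 CPM (331–353), at day 3 and 3493 UMIs, or 342 CPM (331–354), at day 4. The ratio of day 4 over day 3 was 1.00 (0.956–1.05). YAB3 stood at 184 CPM (176–192) at day 3 and 185 CPM (177–194) at day 4, a ratio of 1.01 (0.944–1.07). Their intervals overlapped between the days almost in full. A median gene was 0.08 higher at day 4 on the log2 scale.

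YAB2, which helps build the leaf and floral organ blade, was slightly higher at day 4. It rested on 336 UMIs at day 3 and 368 at day 4, or 30.3 CPM (27.2–33.7) and 36.1 CPM (32.5–39.9). The ratio was 1.19 (1.02–1.38).

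YAB5, the other blade-forming member, and CRC, the carpel and nectary member, were both lower at day 4. YAB5 gave 111 and 58 UMIs, which is 10.0 CPM (8.24–12.1) against 5.68 CPM (4.32–7.35), a ratio of 0.568 (0.406–0.787). The size of the YAB5 difference depended on the nuclei kept. With a minimum of 1500 genes its log2 ratio went from -0.72 to -0.36. The shares of nuclei with a YAB5 UMI were then nearly equal, at 0.956% and 0.923%. CRC gave 169 and 87 UMIs, or 15.2 CPM (13.0–17.7) and 8.53 CPM (6.83–10.5), a ratio of 0.559 (0.427–0.729). The 2 intervals of each gene did not overlap. Of the 14740 genes with at least 200 UMIs over both libraries, 3.3% were at least 1.5-fold lower at day 4 and 4.36% at least 1.5-fold higher. Of the 4 members that passed this minimum, CRC was past the fold downwards and none upwards. YAB5 and INO fell short of the minimum.

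The CRC difference rested on few nuclei. At day 3, 7 nuclei with 5 or more CRC UMIs held 64 of the 169 UMIs (37.9%), the highest with 17, and at day 4, 1 nucleus held 5 of 87. Without these nuclei, a setting chosen after seeing the data, the log2 ratio went from -0.77 to -0.22. The 7 nuclei lay in 5 of the 9 day 3 clusters, 3 of them in the unnamed cluster 6. The nucleus of 17 CRC UMIs also held 11 FIL, 3 AG, 4 AP3 and 7 PI UMIs among 19955, a total over 10 times the median nucleus. Whether such deep barcodes hold more than 1 nucleus was not tested.

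INO, the integument member, gave 3 UMIs in each library. After each nucleus was thinned to 1000 UMIs, 2 day 3 nuclei and 0 of 4545 day 4 nuclei held an INO UMI. By the limit of 3 counts, that 0 allows up to 0.0660% of nuclei with an INO UMI among 1000, and up to 0.0811% by the exact interval. Without thinning, 3 and 2 nuclei held INO, so the 0 is a limit of depth. INO was too sparse for the comparisons that follow.

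**Figure D1:**
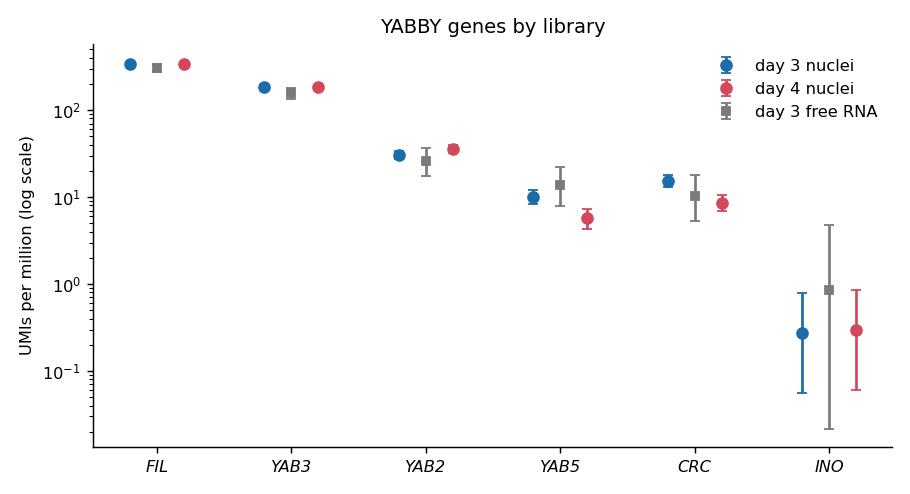
Level of each YABBY gene in nuclei of day 3 and day 4 and in day 3 free RNA, in CPM on a log scale. Points are pooled values and bars are exact 95% Poisson intervals. FIL and YAB3 sit at the same level on both days, while YAB5 and CRC are lower at day 4.

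Free RNA outside nuclei was read from 562093 day 3 barcodes with 1 to 99 UMIs, which held 1162647 UMIs. It carried FIL at 305 CPM (274–339), YAB3 at 156 CPM (134–180), YAB2 at 25.8 CPM (17.4–36.8), YAB5 at 13.8 CPM (7.87–22.3) and CRC at 10.3 CPM (5.33–18.0). For each of these 5 members the interval overlapped that of day 3 nuclei. The part of free RNA in the UMIs of nuclei was not tested. Free RNA of day 4 was not analysed here.

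After thinning to 1000 UMIs, 22.4% (21.2–23.6) of day 3 nuclei and 20.5% (19.3–21.7) of day 4 nuclei held a FIL UMI. YAB3 was found in 14.0% (13.0–15.1) and 13.3% (12.3–14.3) of nuclei, and YAB2 in 2.87% (2.39–3.40) and 3.26% (2.76–3.81). Unthinned, the FIL shares were 35.0% and 32.9% and the YAB3 shares 22.7% and 20.8%. YAB5 was found in 1.00% (0.728–1.34) and 0.594% (0.392–0.863) of thinned nuclei, and CRC in 0.910% (0.651–1.24) and 0.616% (0.410–0.889). At least 1 member was seen in 32.2% of thinned day 3 nuclei and 29.9% of day 4 nuclei, and 2 or more in 8.23% and 7.39%. For comparison, vascular nuclei, where FIL was lowest, held a FIL UMI in 8.33% of nuclei (day 3) and 7.98% (day 4), with median UMIs per nucleus of 1867 and 1818.

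To place the members in tissues, each library was clustered without YABBY genes among the variable genes, and 9 clusters resulted for the day 3 library and 13 for the day 4 library. Clusters were called after markers of known cell types, and 7 and 11 of them received a name. The intervals of FIL lay above the level of the whole library in 5 clusters on each day, and below it in 3 and 5. FIL was found in every cluster and was lowest in vascular ones and in the unnamed day 4 cluster 9 (94.3 CPM). At day 3 it stood at 482 CPM (446–520) in the epidermis-like cluster, at 413 CPM (386–442) in the cortex-like cluster and at 410.3 CPM (373–450.3) in the S phase-like cluster. These neighbours in order did not separate clearly by their intervals, except that the epidermis-like cluster lay above the cortex-like one. In the procambium-like cluster, the vascular stem cells, FIL stood at 114 CPM (99.2–131), and in the xylem-like cluster at 113 CPM (85.5–148). At day 4, FIL stood at 415 CPM (390–442) in the cortex-like cluster and at 112 CPM (94.6–131) in the xylem-like cluster. The day 4 xylem-like cluster held 611 nuclei, with 7 of 9 procambium and 11 of 14 xylem markers up, against 124 nuclei in that of day 3, so the shared name covers unlike sets of cells. Over all vascular nuclei the FIL level was 0.283 (0.249–0.321) of that in other nuclei at day 3 and 0.317 (0.275–0.365) at day 4. For YAB3 these ratios were 0.249 (0.206–0.299) and 0.240 (0.191–0.297).

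YAB2 showed the low vascular level at day 3, with a ratio of 0.454 (0.312–0.643), and at day 4 the ratio was 0.891 (0.658–1.19), an interval that included 1. The vascular nuclei were the procambium-like and xylem-like clusters at day 3, and the xylem-like, phloem-like and vascular-like clusters at day 4. The unnamed day 3 cluster 8, with leading genes in common with the day 4 phloem-like cluster, was not among them and held YAB2 at 22.1 CPM (8.11–48.1). In the vascular nuclei YAB2 went from 15.5 CPM (10.9–21.5) at day 3 to 32.7 CPM (24.7–42.5) at day 4. When both libraries were clustered together, YAB2 was also higher at day 4 in the vascular-like cluster 9, which had both procambium and phloem markers up, at 23.3 and 52.0 CPM, a ratio of 2.23 (1.06–5.13) resting on 10 and 29 UMIs. In the joint S phase-like cluster 10 YAB2 went from 28.2 to 81.4 CPM, a ratio of 2.89 (1.45–6.08) resting on 13 and 28 UMIs. In the other 10 joint clusters the YAB2 intervals included 1. Within the day 4 library YAB2 was highest in the unnamed cluster 8, at 78.4 CPM (52.9–112), a cluster led by histone genes and EPF2, a gene of stomatal precursors.

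**Figure D2:**
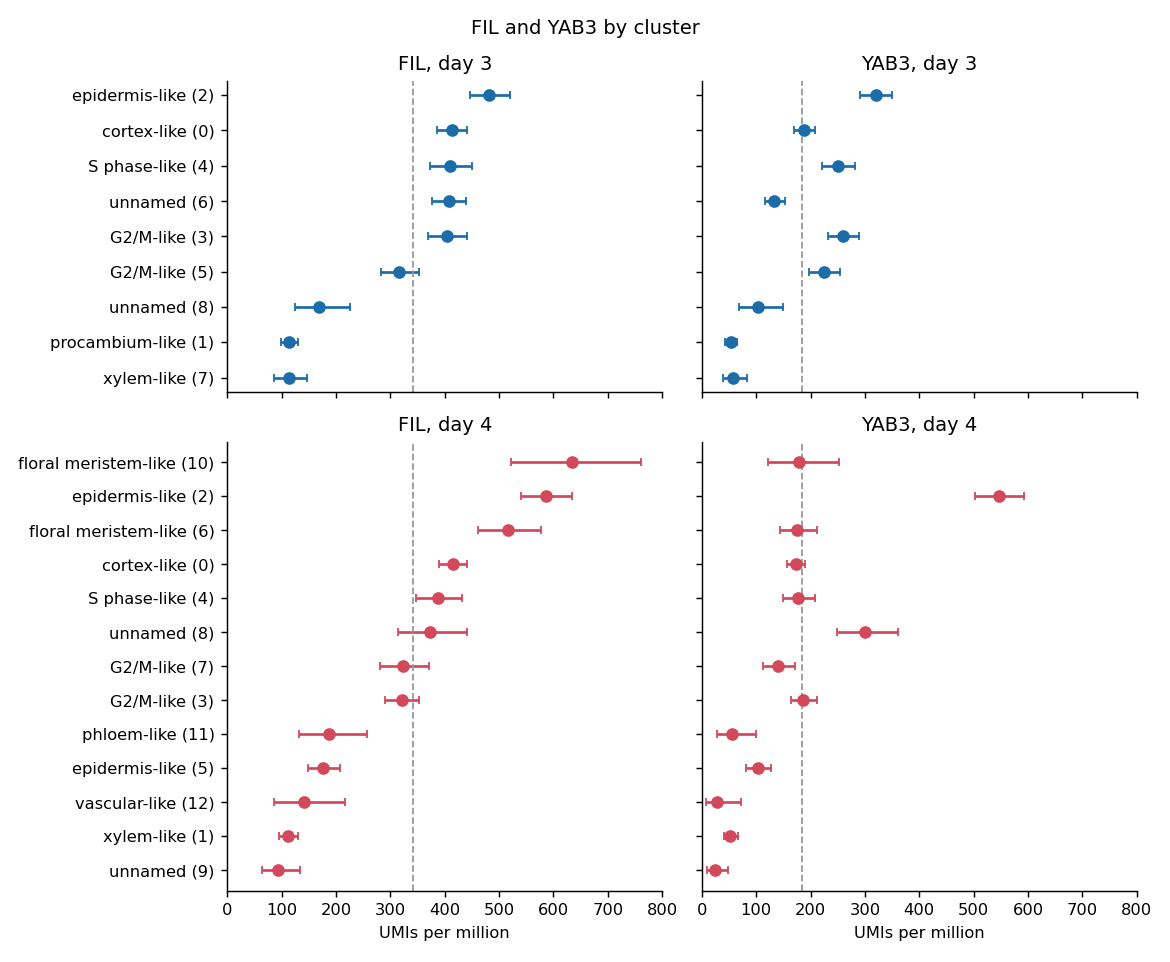
FIL and YAB3 in every cluster of day 3 (top) and day 4 (bottom), in CPM, with exact 95% Poisson intervals. Clusters are ordered by FIL, the number in brackets is the cluster number, and the dashed line is the level over all nuclei of the library. Procambium-like, xylem-like and vascular-like clusters sit far below the line for both genes, and the day 4 epidermis-like clusters 2 and 5 sit on opposite sides of it.

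The epidermis held the widest contrast within a tissue. At day 4 the epidermis-like cluster 2 had 12 of 14 epidermal markers up and SHN1, a regulator of cuticle genes, among its leading genes, and it carried FIL at 586 CPM (541–635) and YAB3 at 546 CPM (502–593). The epidermis-like cluster 5, with 11 of 14 markers up and led by the wax gene CER4, carried FIL at 176 CPM (148–207) and YAB3 at 103 CPM (82.2–127). The share of thinned nuclei with a YAB3 UMI was 32.3% in the first and 6.52% in the second. YAB2 followed the same order, at 61.5 CPM (47.4–78.6) against 26.6 CPM (16.7–40.3).

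The same contrast was present at day 3 among finer clusters. The epidermis-like finer cluster 5, led by MYB11 and LTL1, which were also among the leading genes of the day 4 cluster 2, carried FIL at 688 CPM (633–746) and YAB3 at 517 CPM (469–568). The epidermis-like finer cluster 9, led by CYP96A15 and CER4, carried FIL at 189.9 CPM (159–225) and YAB3 at 114 CPM (89.97–142). In both libraries FIL and YAB3 were lower in the epidermis led by wax genes than in the other epidermis, with intervals far apart. The highest level of FIL in any cluster was 986 CPM (894–1085) in the day 4 finer cluster 8, which was led by GSTF12 and LDOX, genes of the flavonoid pathway, and received no name. YAB3 stood there at 499 CPM (434–571).

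Taken as 1 tissue, the epidermis held FIL at 1.50 times (1.38–1.63) the level of other nuclei at day 3 and 1.23 times (1.13–1.34) at day 4, and YAB3 at 1.94 times (1.74–2.16) and 2.36 times (2.15–2.60). The day 3 FIL ratio became 0.996 when the 8% of nuclei with the highest doublet scores were left out and the rest clustered again, and the 341 nuclei that then bore the epidermis name had CER4 and CYP96A15 among their leading genes. The day difference of YAB3 in the joint epidermis-like cluster 1, 252 CPM against 491 CPM, a ratio of 1.95 (1.73–2.20), also changed with the nuclei included. Of its 611 day 3 nuclei, 302 came from the unnamed day 3 cluster 6, which was led by LTP6 and had a median of 3267.5 UMIs. Without them, a setting chosen after seeing the data, YAB3 stood at 512 CPM at day 3 and the ratio was 0.958 (0.835–1.10), while FIL stood at 751 CPM and its ratio went from 1.08 (0.979–1.20) to 0.730 (0.648–0.824). Of the other joint clusters, YAB3 was lower at day 4 in the G2/M-like clusters 3, at 0.820 (0.682–0.984), and 5, at 0.734 (0.596–0.901), and FIL was lower in the S phase-like cluster 10, at 0.795 (0.632–0.996).

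At day 4 both floral meristem-like clusters held FIL above and YAB3 near the level of the library. Of 10 floral meristem markers, 5 were up in cluster 10 and 4 in cluster 6. Without the nuclei of highest doublet scores, a cluster of 613 nuclei with ABCB11 and UGT74E2 among its leading genes received no name. It had 4 of 10 floral meristem markers up, but another class had more markers among the leading genes. FIL stood at 633 CPM (522–761) in cluster 10 and 517 CPM (461–577) in cluster 6, whose leading genes include ABCB11 and UGT74E2. YAB3 stood at 179 CPM (123–253) and 175 CPM (143–211), intervals that both include its level over all nuclei. Among finer day 4 clusters with this name, cluster 4 gave 2.99 (2.39–3.76) FIL UMIs per YAB3 UMI, whereas cluster 9, led by LTP6, gave 1.67 (1.30–2.16), close to the 1.85 of all day 4 nuclei. The name was given to none of the 9 day 3 clusters, but joint cluster 4 with this name held 390 day 3 and 424 day 4 nuclei. FIL stood there at 382 CPM (339–429) and 499.9 CPM (452–551), a ratio of 1.31 (1.12–1.53), and YAB3 at 163 CPM (135–195) and 184 CPM (156–216).

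The relative level of FIL and YAB3 was followed as FIL UMIs per YAB3 UMI, a ratio in which capture of each gene cancels between clusters. Over all nuclei it was 1.86 (1.76–1.962) at day 3 and 1.85 (1.75–1.958) at day 4. At day 4 it was lowest in the epidermis-like cluster 2, at 1.07 (0.956–1.21), and was 2.40 (2.13–2.70) in the cortex-like cluster and 2.95 (2.36–3.71) in the floral meristem-like cluster 6. At day 3 it ran from 1.41 (1.19–1.67) in the G2/M-like cluster 5 to 3.06 (2.62–3.58) in the unnamed cluster 6. Intervals lay above the value of all nuclei in 2 of 9 clusters at day 3 and 3 of 13 at day 4, and below it in 3 and 2 clusters. In vascular nuclei the ratio was 2.095 (1.69–2.61) at day 3, beside 1.961 (1.64–2.36) in free RNA. These intervals overlapped, and the part of free RNA in the low vascular levels was not tested.

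**Figure D3:**
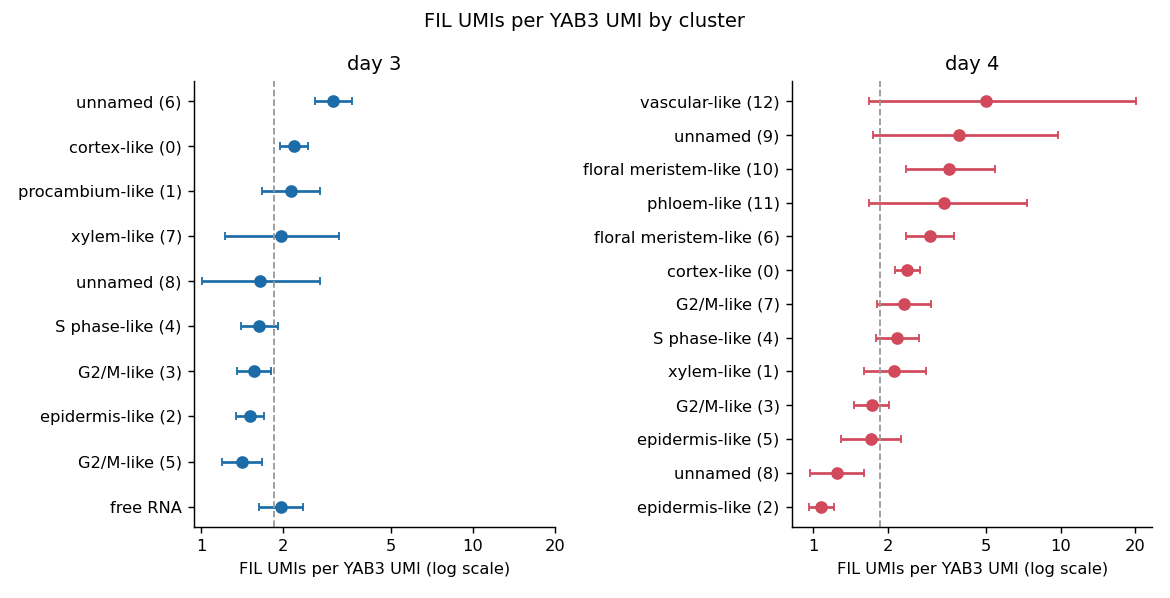
FIL UMIs per YAB3 UMI in each cluster on a log axis, day 3 at left with free RNA and day 4 at right, with exact 95% intervals. The dashed line is the ratio over all nuclei. The day 4 epidermis-like cluster 2 sits at 1.07 and the unnamed day 3 cluster 6 at 3.06.

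CRC and YAB5 were too sparse for most clusters. CRC was highest at day 3 in the unnamed cluster 6, at 34.6 CPM (26.1–44.9) from 56 UMIs. Of these 56 UMIs, 3 nuclei held 17, 11 and 7, so most of the level rests on 3 nuclei. Whether CRC is higher in this cluster without them was not tested. At day 4 CRC stood at 18.3 CPM (11.0–28.5) in the epidermis-like cluster 2 and 19.6 CPM (10.14–34.3) in the floral meristem-like cluster 6, and it had 0 UMIs in the G2/M-like cluster 3, which allows up to 2.93 CPM by the exact interval. For YAB5, the intervals of all 9 day 3 clusters included its library level of 10.0 CPM, and each cluster held 20 or fewer UMIs.

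The members were detected together in the same nuclei more often than their separate shares predict. At day 3, 274 thinned nuclei held both FIL and YAB3 where 138 were expected for independent genes, a ratio of 1.98 (1.76–2.23). At day 4, 265 nuclei held both and the ratio was 2.14 (1.89–2.42). The expected number was also summed within clusters, which takes out differences between them, and the ratio was then 1.78 (1.57–2.00) at day 3 and 1.78 (1.57–2.00) at day 4. FIL and YAB2 gave 2.02 (1.53–2.62) and 1.98 (1.51–2.54), and 1.86 (1.41–2.41) and 1.76 (1.35–2.27) within clusters. YAB3 and YAB2 gave 2.26 (1.62–3.08) and 3.11 (2.38–3.99), and 2.03 (1.45–2.76) and 2.54 (1.94–3.26) within clusters.

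YAB5 was also found with FIL, in 21 nuclei at day 3, a ratio of 2.13 (1.32–3.26), and in 13 at day 4, a ratio of 2.35 (1.250–4.02). With YAB3 the YAB5 ratio was 1.30 (0.559–2.55) at day 3 and 3.07 (1.53–5.49) at day 4. CRC showed no such excess: its ratios with FIL were 1.56 (0.855–2.62) and 1.04 (0.383–2.27), and with YAB3 1.43 (0.615–2.81) and 0.808 (0.167–2.36). All 4 CRC intervals included 1, and with 14 or fewer joint nuclei they also included ratios near 2. YAB5 and CRC shared 3 nuclei at day 3, a ratio of 7.49 (1.55–21.9), and 1 at day 4.

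**Figure D4:**
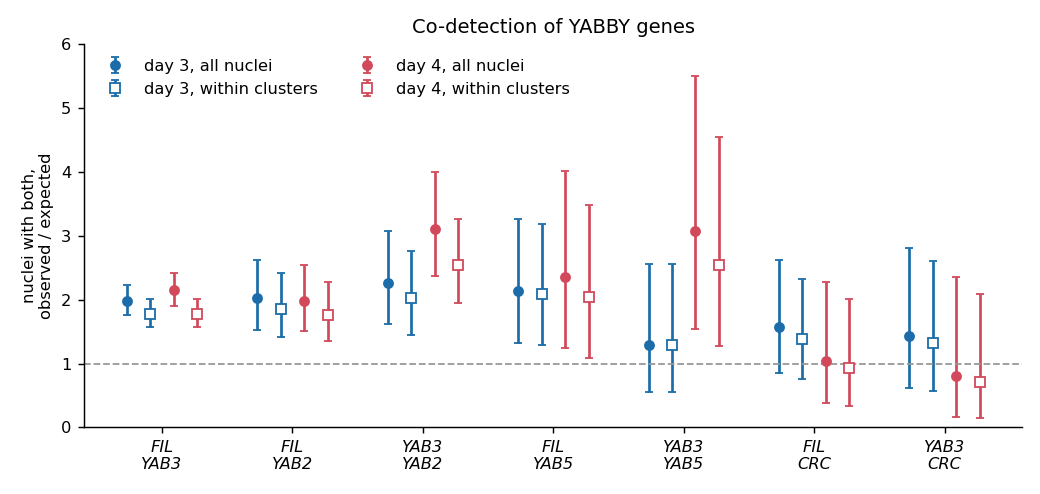
Nuclei that hold both genes of a pair divided by the number expected for independent genes, over all nuclei (filled circles) and within clusters (open squares), after thinning to 1000 UMIs. Bars are 95% intervals from the exact Poisson interval of the joint count, and the dashed line marks a ratio of 1. The pairs of FIL, YAB3 and YAB2 lie above 1 on both days in both measures.

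To see which genes accompany the members, other regulators of organ polarity and the meristem were compared between nuclei with and without a FIL or a YAB3 UMI, after thinning. These nuclei come from the same library, so the values describe nuclei and are no test of a condition. Of 12219 genes with at least 200 UMIs at day 3, 2.72% were at least 1.5-fold higher and 5.81% at least 1.5-fold lower in nuclei with FIL. At day 4 these shares were 2.82% and 5.94% of 12043 genes. For YAB3 they were 4.43% and 8.12% at day 3 and 4.57% and 9.46% at day 4. The median over all these genes lay between -0.03 and -0.01 on the log2 scale.

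Among the abaxial genes, KAN1, a KANADI repressor that sets abaxial identity, stood out. It measured 363 CPM in day 3 nuclei with FIL and 221 CPM in those without, a ratio of 1.64 (1.44–1.87), and 389 and 247 CPM at day 4, a ratio of 1.58 (1.39–1.78). With YAB3 the KAN1 ratios were 2.09 (1.82–2.40) and 2.14 (1.88–2.44). Within clusters the day 4 KAN1 log2 value shrank from 0.66 to 0.38 with FIL and from 1.10 to 0.59 with YAB3. KAN1 was found with YAB2 in 35 nuclei at day 3, 1.58 times (1.10–2.20) the expected number, and in 46 nuclei at day 4, 1.66 times (1.22–2.22). ARF4, an auxin response factor of the abaxial side, gave ratios of 1.41 (1.17–1.70) and 1.22 (1.03–1.45) with FIL. The day 4 log2 value of ARF4 with FIL was 0.29 over all nuclei and 0.31 within clusters. ETT, its partner, gave 1.11 (0.941–1.30) with FIL at day 3 and 0.763 (0.641–0.904) at day 4, and only the second interval excluded 1. With YAB3 at day 4 ETT gave 0.621 (0.492–0.776). KAN2, another KANADI gene, was found with YAB3 at 0.995 (0.773–1.26) and 0.931 (0.710–1.20) times the expected number. With FIL these values were 1.21 (1.01–1.44) and 0.993 (0.807–1.21). With FIL, 2 of the 5 abaxial genes of at least 200 UMIs were at least 1.5-fold higher at day 3 and 1 at day 4, and none was as much lower. With YAB3, 1 and 2 were higher and 0 and 1 lower, the lower gene being ETT. The median log2 ratio over all 6 detected abaxial genes was 0.39 and 0.23 with FIL and 0.15 and 0.07 with YAB3. Over the 5 genes of at least 200 UMIs, the YAB3 medians were 0.34 and 0.35, and unthinned the day 3 FIL median was 0.17. Within clusters the FIL medians over these 5 genes went from 0.50 to 0.39 at day 3 and from 0.17 to 0.07 at day 4. The YAB3 medians went from 0.34 to 0.21 and from 0.35 to 0.33. The YAB2 medians over these 5 genes were -0.15 and -0.25, so the list as a whole was not higher with YAB2. With YAB2, KAN2 gave 0.902 and 0.570, KAN3 0.721 and 0.837 and ETT 0.624 and 0.737. Each of these intervals included 1. ARF4 gave 1.41 (0.885–2.13) and 2.14 (1.57–2.86) with YAB2.

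The adaxial genes, which specify the opposite side, did not form a block. AS1, a MYB factor that keeps KNOX genes off in organs, was higher with FIL, at 1.24 (1.08–1.41) and 1.52 (1.33–1.73), and with YAB3, at 1.35 (1.16–1.58) and 1.63 (1.41–1.89). REV, an HD-ZIP III gene, was lower with FIL, at 0.818 (0.696–0.957) and 0.772 (0.667–0.891). The HD-ZIP III gene PHV gave 1.05 (0.899–1.23) and 1.22 (1.04–1.41) with FIL, and 1.31 (1.10–1.55) and 1.37 (1.15–1.62) with YAB3. PHB, of the same group, gave 0.969 (0.810–1.15) and 1.15 (0.964–1.37) with FIL, and 1.12 (0.910–1.37) and 1.26 (1.02–1.54) with YAB3. ATHB15, also HD-ZIP III, gave 0.680 (0.556–0.827) and 0.883 (0.740–1.05) with FIL, and 0.728 (0.569–0.920) and 0.682 (0.537–0.855) with YAB3. ATHB8, the HD-ZIP III gene of procambium, was at 0.439 (0.308–0.611) and 0.399 (0.279–0.556) with FIL over all nuclei. Within clusters the ATHB8 log2 value with FIL shrank from -1.17 to -0.21 at day 3 and from -1.31 to -0.43 at day 4. The median log2 ratio of the 7 adaxial genes was -0.29 at day 3 and 0.16 at day 4 with FIL, and its sign depended on the processing. At 1.5-fold, 0 of 6 adaxial genes were higher and 1 lower with FIL at day 3, and 1 and 1 at day 4, and with YAB3 0 and 1, and 1 and 1.

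All 4 class I KNOX genes, which keep meristem cells undifferentiated, were lower in nuclei with either member. STM measured 81.3 CPM with FIL and 174 CPM without at day 3, a ratio of 0.466 (0.365–0.590), and 86.9 and 143 CPM at day 4, a ratio of 0.606 (0.474–0.767). With YAB3 the STM ratios were 0.427 (0.307–0.580) and 0.418 (0.290–0.586). KNAT1 gave 0.810 (0.684–0.955) and 0.757 (0.648–0.881) with FIL, and 0.542 (0.423–0.686) and 0.642 (0.523–0.780) with YAB3. KNAT6 gave 0.717 (0.582–0.876) and 0.845 (0.699–1.02) with FIL, and 0.537 (0.400–0.708) and 0.667 (0.517–0.850) with YAB3. KNAT6 with FIL at day 4 was the exception among the KNOX values, with an interval that included 1. The median log2 ratio of the 4 genes was -0.43 and -0.36 with FIL and -0.88 and -0.75 with YAB3, and within clusters -0.31 and -0.18, and -0.70 and -0.45. At 1.5-fold, 1 of 4 was lower with FIL on each day and 3 of 4 with YAB3 on each day. YAB2 was found with STM in 9 and 8 nuclei, 0.560 times (0.256–1.06) and 0.483 times (0.208–0.951) the expected number.

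Genes of the organ boundary, where growth is held back between organs, had ratios below 1 with FIL, most of them with intervals that included 1. CUC1 gave 0.460 (0.221–0.866) with FIL at day 3 and 0.678 (0.355–1.21) at day 4, CUC2 0.512 (0.293–0.843) and 0.831 (0.470–1.39), and CUC3 0.781 (0.485–1.21) and 0.612 (0.350–1.01). Among these, the day 3 intervals of CUC1 and CUC2 excluded 1. With YAB3, CUC3 gave 0.539 (0.262–0.998) and 0.478 (0.214–0.938), and CUC2 1.02 (0.602–1.65) and 0.556 (0.233–1.14). At 1.5-fold, 2 and 1 of 3 boundary genes were lower with FIL and 2 and 2 with YAB3. LOB and LAS were below 200 UMIs, and their intervals included 1 with both members on both days.

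Of the genes of the blade and its margin, JAG, PRS and WOX1 were higher with FIL on both days. JAG, which drives growth of organ blades, measured 61.0 CPM with FIL and 19.0 CPM without at day 3, a ratio of 3.20 (2.22–4.62), and 54.7 and 16.6 CPM at day 4, a ratio of 3.30 (2.22–4.87). PRS, a WOX gene of the organ margin, gave 3.799 (2.45–5.92) and 3.06 (1.98–4.69), and its relative WOX1 2.41 (1.19–4.77) and 2.17 (1.17–3.91). PRS and WOX1 lay below 200 UMIs in both libraries. NUB, the paralogue of JAG, gave 1.82 (1.15–2.84) at day 3 and 0.787 (0.398–1.44) at day 4. KLU, which prolongs organ growth and has the most UMIs of this list, gave 1.21 (1.03–1.41) and 1.16 (0.925–1.44) with FIL, and 1.13 (0.9296–1.36) and 0.913 (0.680–1.21) with YAB3. At 1.5-fold, 2 of 3 and 1 of 2 genes of at least 200 UMIs were higher with FIL, and 1 of 3 and 1 of 2 with YAB3. With YAB3 the JAG ratios were 2.20 (1.43–3.30) and 1.90 (1.17–3.00). The JAG log2 value shrank from 1.63 to 0.89 within clusters at day 3 and from 1.66 to 0.89 at day 4.

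Of the regulators of floral primordia, AIL6, a growth gene that encodes an AP2-type transcription factor, gave 0.712 (0.551–0.909) and 0.693 (0.525–0.903) with FIL. With YAB3 the AIL6 ratios were 0.740 (0.540–0.994) and 0.416 (0.268–0.618). MP, an auxin response factor that starts flowers, was lower too, at 0.786 (0.698–0.884) and 0.842 (0.739–0.958) with FIL. ANT, another growth gene, gave 1.18 (1.05–1.32) and 1.09 (0.970–1.22). LFY gave 1.43 (1.10–1.85) with FIL and 1.12 (0.799–1.53) with YAB3 at day 4. The day 3 interval of LFY with FIL included 1. None of these 4 genes was past 1.5-fold with FIL, and AIL6 alone was with YAB3, at day 4. Of the carpel and ovule genes SPT alone reached 200 UMIs.

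Of the floral homeotic genes, AP1, which specifies sepals and petals, was higher with FIL, at 1.34 (1.21–1.49) and 1.42 (1.28–1.56), and SEP1, a partner of the organ identity factors, at 1.65 (1.34–2.02) and 1.37 (1.11–1.67). Within clusters these were smaller: the log2 values of AP1 with FIL went from 0.42 to 0.23 at day 3 and from 0.50 to 0.21 at day 4. The median over homeotic genes of at least 200 UMIs went from 0.25 to 0.06 and from 0.29 to -0.0012. PI, which specifies petals and stamens, was lower with YAB3, at 0.672 (0.516–0.863) and 0.552 (0.384–0.773). With FIL, PI was found in 0.966 (0.794–1.17) and 0.872 (0.675–1.11) times the expected number of nuclei. AP3, of the same organs, was found with YAB3 in 0.970 (0.780–1.19) and 1.12 (0.871–1.41) times that number. AG, which specifies stamens and carpels, gave 0.784 (0.492–1.21) with FIL at day 3 and 0.194 (0.0516–0.516) at day 4, from 4 UMIs in nuclei with FIL and 80 in those without. The day 4 library had 198 AG UMIs in all, and with YAB3 the day 4 AG ratio was 0.985 (0.471–1.87). At 1.5-fold, 1 and 0 homeotic genes were higher with FIL and 1 and 2 with YAB3, of 8 and 7 tested, and PI alone was as much lower, with YAB3 at day 4. Of the co-repressors with which YABBY proteins work, none of LUG, LUH, SEU, SLK1, SLK2 and TPL was past 1.5-fold with either member on either day. SLK3 gave 1.56 (0.839–2.73) and 0.630 (0.327–1.11) with YAB3. Among co-repressors of at least 200 UMIs, no interval excluded 1 with FIL. With YAB3, 1 of 6 intervals lay above 1 at day 3. At day 4, 1 of 7 lay below 1, that of TPL, at 0.746 (0.601–0.919).

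The same genes were read in nuclei grouped by the number of FIL UMIs left after thinning, a display whose genes were chosen after their values were seen. In day 3 nuclei with 0, 1, 2 and 3 or more FIL UMIs, YAB3 stood at 134, 283, 596 and 702 CPM. In the day 4 library the YAB3 levels were 134, 378, 438 and 762.5 CPM. KAN1 went from 221 CPM (205–237) without FIL to 539 CPM (425–675) in the 141 day 3 nuclei with the most, and stood at 247, 338, 527 and 400.0 CPM in the 4 groups of day 4, where the 160 nuclei with the most FIL were not the highest. KNAT6 went from 166 CPM (152–180) to 56.7 CPM (24.5–112) at day 3 and from 179 CPM (166–193) to 62.5 CPM (30.0–115) at day 4. The intervals of the lowest and highest group did not overlap for YAB3, KAN1 or KNAT6 on either day.

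**Figure D5:**
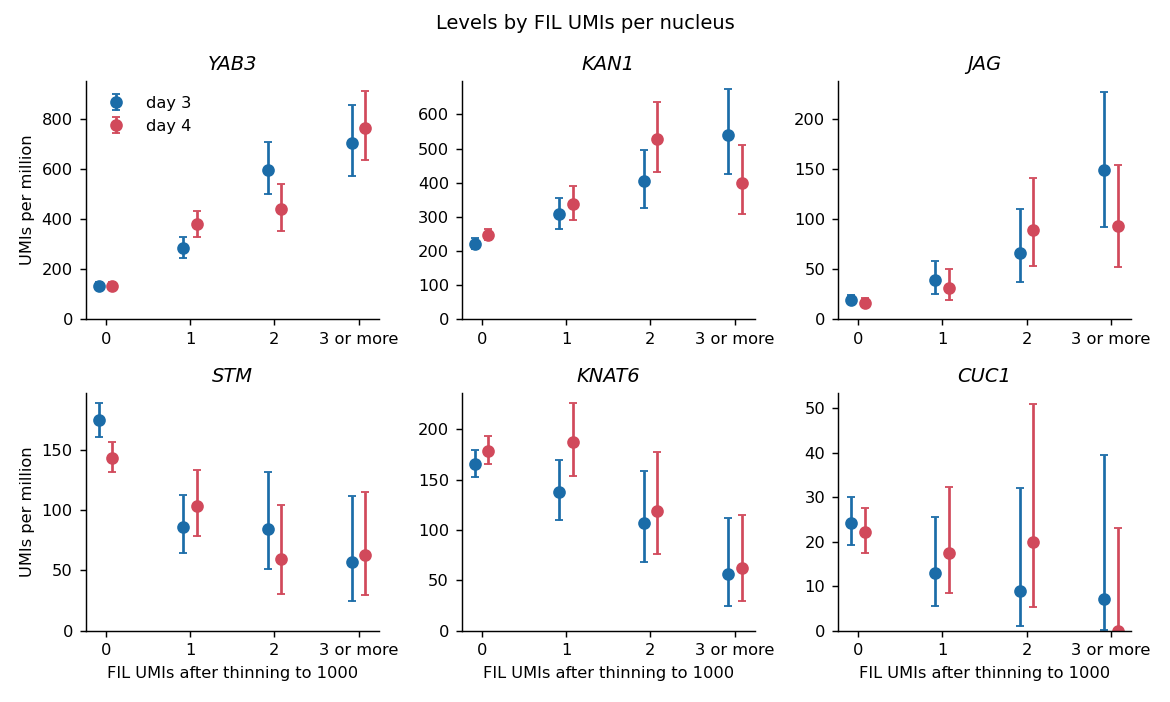
Levels of YAB3, KAN1, JAG, STM, KNAT6 and CUC1, in CPM, in nuclei grouped by FIL UMIs left after thinning to 1000 UMIs, with exact 95% Poisson intervals. YAB3 goes from 134 to 702 at day 3 and from 134 to 762.5 at day 4, whereas KNAT6 goes from 166 to 56.7 and from 179 to 62.5.

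Correlations over nuclei of ln(1 + UMIs per 10000) gave the genes most like each member among 11648 genes with at least 200 UMIs in each library. Nuclei of a library share depth and free RNA, so these values are a description. The gene most like FIL was YAB3, with r of 0.37 at day 3 and 0.36 at day 4, in first place on both days, where the median gene had r of 0.01. With nuclei thinned to 1000 UMIs the r of FIL and YAB3 was 0.24 and 0.25. The next were PME5, a pectin methylesterase gene (0.23 and 0.16), and HTH, a gene of the epidermis and cuticle (0.20 and 0.16). The order was mutual: FIL was in first place for YAB3 on both days, followed by HTH (0.23 and 0.24), DRB3, a double-stranded RNA binding protein gene (0.20 and 0.22), and BCAT-1, an amino acid transaminase gene (0.21 and 0.19). For YAB2 the first places were held by YAB3 (0.16 and 0.21) and FIL (0.16 and 0.15), with KAN1 at 0.10 and 0.11 and the BELL homeobox gene BLH4 at 0.09 and 0.09. Of the 50 genes most like FIL in each library 27 were shared by both days, for YAB3 34 and for YAB2 19.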

How the data were processed

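The deposited files hold raw UMI counts per gene and barcode, made by the authors with Cell Ranger 3.1.0 and the Araport11 annotation; the genome build is not given in the sources used here, and no normalization was applied. The 2 libraries were grouped by the day in their titles; the protocol text of both names the fourth day. Barcodes with at least 1000 nuclear genes were kept, and organelle genes (2.85% and 2.63% of UMIs) were left out. Members and gene lists were chosen with earlier results of these data known. The text names the 6 members, the genes of the lists and the 5 genes most correlated with a member.

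Counts were summed over nuclei and given as CPM with exact Poisson intervals, ratios with exact conditional binomial intervals and shares with Clopper-Pearson intervals. Log2 values used a pseudocount of 1 CPM. For shares, co-detection and nuclei with or without a member, nuclei were thinned to 1000 UMIs. Clustering used Seurat 5.3.0 with sctransform 0.4.2, 3000 variable genes less the members, 9 principal components and Louvain clustering at resolution 0.04 in UMAP space, and finer clusters used 20 components at resolution 1. A cluster was named when at least 3 markers of 1 cell type were 2-fold up and either 1 was among its 10 leading genes or over 1 in 3 of the list was up, a condition set after the clusters were seen. Where another list of the same class had more leading genes, the cluster was called by the class (vascular or ground). Scrublet (scanpy 1.11.5) called 0 doublets in either library, so the 8% of nuclei with the highest scores were left out as an alternative. Sequences were read from RefSeq on TAIR10.1, and all 6 members matched. The statistics were tested on simulated data. Another scaling, minimum of genes, pseudocount, depth and clustering were tried.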

Additional observations from a re-analysis of the deposited data

How the results depend on the processing

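Of 172 alternative values, 126 were counted as the same as the reported value, 41 as moved and 5 as reversed in direction. Where the reported value has an interval, the same means within it. Adaxial list medians are among the 5, and no interval is given for a list median. The FIL day ratio, itself close to 1, also changed sign with scaling: with TMM the FIL log2 ratio of the days was -0.088, and with median-of-ratios scaling FIL was at -0.10 and YAB3 at -0.098. The CRC log2 ratio was -0.45 with a pseudocount of 10 CPM and -0.22 without nuclei of 5 or more CRC UMIs. The YAB5 log2 ratio was -0.35 with a pseudocount of 10 CPM and -0.36 with a minimum of 1500 genes, both just inside its interval. Shares follow depth: unthinned, FIL was in 35.0% and 32.9% of nuclei and YAB3 in 22.7% and 20.8%, and with a minimum of 500 genes and thinning to 500 UMIs, FIL was in 12.9% and 13.4% and YAB3 in 7.70% and 7.88%. The day 4 co-detection ratio of FIL and YAB3 was 1.56 within finer clusters.

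With both libraries clustered together, the day 3 vascular ratio was 0.331 for FIL and 0.339 for YAB3, and the YAB3 epidermis ratio 1.31. Without the 8% of nuclei with the highest doublet scores, the day 3 epidermis ratios were 0.996 for FIL and 1.58 for YAB3. The adaxial median with FIL at day 4 became -0.22 unthinned, and with YAB3 it became 0.0034 at day 3 and 0.039 at day 4 over genes of at least 200 UMIs. Without the unnamed day 3 cluster 6, the YAB3 ratio of the days in the joint epidermis-like cluster was 0.958, FIL went from 1.08 to 0.730 and YAB2 from 1.36 to 0.808. The abaxial medians with YAB3 became 0.34 and 0.35 over genes of at least 200 UMIs, and that with FIL at day 3 became 0.17 unthinned. The correlation of FIL and YAB3 was 0.24 and 0.25 over thinned nuclei. Apart from the changes these settings make to the nuclei or genes used, the cause was not tested.

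No paired analysis was possible because each day has 1 library, and no replicate was left out for the same reason. Depth limits YAB5, CRC and INO, whose clusters mostly hold fewer than 30 UMIs.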
